A study of Mus musculus with 6 samples.

Results

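The genes described here encode the mediators that set the tone of the vessel wall, the enzymes that make them, the receptors that read them and the enzymes that carry the signal inside the cell. They were 59 genes of the 55487 in the deposited table, taken by symbol from 12 mediator systems, and all 59 were found. Smooth muscle of the pulmonary artery contracts or relaxes in response to small molecules and peptides from the endothelium, from platelets and from the muscle cell itself. Endothelin, angiotensin II, serotonin, thromboxane and noradrenaline act mainly through receptors coupled to Gq proteins, which raise cytosolic calcium, whereas prostacyclin, adenosine, adrenomedullin, nitric oxide and natriuretic peptides act mainly through the cyclic nucleotides cAMP and cGMP. Several of these systems are drug targets in pulmonary hypertension, among them the endothelin receptors, the prostacyclin receptor and the phosphodiesterase encoded by *Pde5a*.

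RNA sequencing was performed on mouse pulmonary artery smooth muscle cells (mPASMCs), bought from Procell as a culture and grown in DMEM with fetal bovine serum. The cells were transfected by Lipofectamine with a small interfering RNA against the long noncoding RNA *Snhg18* (si-*Snhg18*, 3 libraries) or with the control oligonucleotide (si-NC, 3 libraries), and the comparison asks which transcripts change when *Snhg18* is reduced. The labels call the genotype of the si-NC cells control. The mouse strain of the cells, the oxygen level of the sequenced cultures, the time after transfection and whether the libraries came from separate cultures were not given in the sources used here, so that p-values measure the spread between these libraries, which may be technical.

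The libraries held 18097718 to 25988746 counted reads, and 3 reads, taken as the floor of each library, corresponded to 0.115 to 0.164 CPM (counts scaled to a common library size with TMM factors). This floor covers counting error only. On the first principal component of the tested genes, which held 56.5% of the variance, the libraries numbered 2 had the lowest score of their groups, at -51.9 in si-NC and -32.5 in si-*Snhg18*. The other si-NC libraries lay at -6.80 and -0.299 and the other si-*Snhg18* libraries at 55.4 and 36.1, and counts without a library are given beside the counts they touch. *Snhg18* itself, located at chr15:32240565-32244662 (GRCm38, minus strand), stood at 23.5, 22.4 and 22.1 CPM in the si-NC libraries and at 10.6, 11.1 and 9.96 CPM in the si-*Snhg18* libraries, a log2 fold change of -1.10 ± 0.099 (SE, edgeR's quasi-likelihood test, adjusted p = 0.00727). Its adjusted p was over 0.05 on leaving out si-NC 1, si-NC 3 or si-*Snhg18* 3, with log2 fold changes of -1.07, -1.11 and -1.06, and in each of these fits no gene of the whole table passed. All 8 markers of smooth muscle were detected, with a summed level of 3644 to 3799.5 CPM in si-NC and 2730.3 to 3596 CPM in si-*Snhg18*, and *Tagln* was the 1 marker that fell, with 5 lower once the replicate number was a block. The 6 fibroblast markers summed to 2284 to 2982 CPM and 1415 to 2228 CPM, ranges that did not overlap, although none of the 6 passed the test and 2 passed it with the block. The other lists were low, with no call, and 1 endothelial, 1 epithelial and 1 neural marker was lower with the block. Endothelial markers summed to 13.3 to 15.6 CPM in si-NC and 14.4 to 16.4 CPM in si-*Snhg18*, leukocyte markers to 9.06 to 11.9 and 8.91 to 14.5 CPM with *Adgre1* and *Cd3e* at 0, epithelial markers to 7.24 to 22.7 and 1.19 to 7.41 CPM with *Sftpc* and *Scgb1a1* at 0, and neural markers to 14.5 to 32.6 and 5.57 to 26.6 CPM. In these bulk libraries fewer cells of one type and less RNA per cell cannot be told apart, and the part of these marker levels in the results was not tested.

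The mediator systems differed widely in abundance. In TPM, which divide the counts by the exon length deposited with each gene and scale the sum of all genes to the same total, 7 of the 59 genes had a mean level over the 6 libraries of at least 100, 20 reached at least 10, and 17 stayed under 1. Enzymes of prostanoid synthesis, except *Tbxas1*, were among the most abundant. *Ptges*, which encodes a prostaglandin E synthase, averaged 1289 TPM, *Ptgs2* and *Ptgs1*, which encode the cyclooxygenases, averaged 963 and 714 TPM, and *Ptgis*, which encodes prostacyclin synthase, averaged 242 TPM. The value of *Ptges* rested on a deposited exon length of 543 bases, and with the 3931 bases of all its annotated exons merged it was 284 TPM. Outside this system the most abundant genes per length were *Adm*, which encodes the vasodilator peptide adrenomedullin, at 741 TPM, the thrombin receptor gene *F2r* at 277 TPM, the lysophosphatidic acid receptor gene *Lpar1* at 123 TPM and *Ece1* at 80.5 TPM. With merged exons for every gene, *Ptgs2*, *Ptgs1* and *Ptgis* averaged 1492, 839 and 256 TPM. On that scale *Adm* stood at 1013 TPM and *F2r* at 441 TPM, above *Ptges* and *Ptgis*, so that the order depended on the length used.

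**Figure D1:**
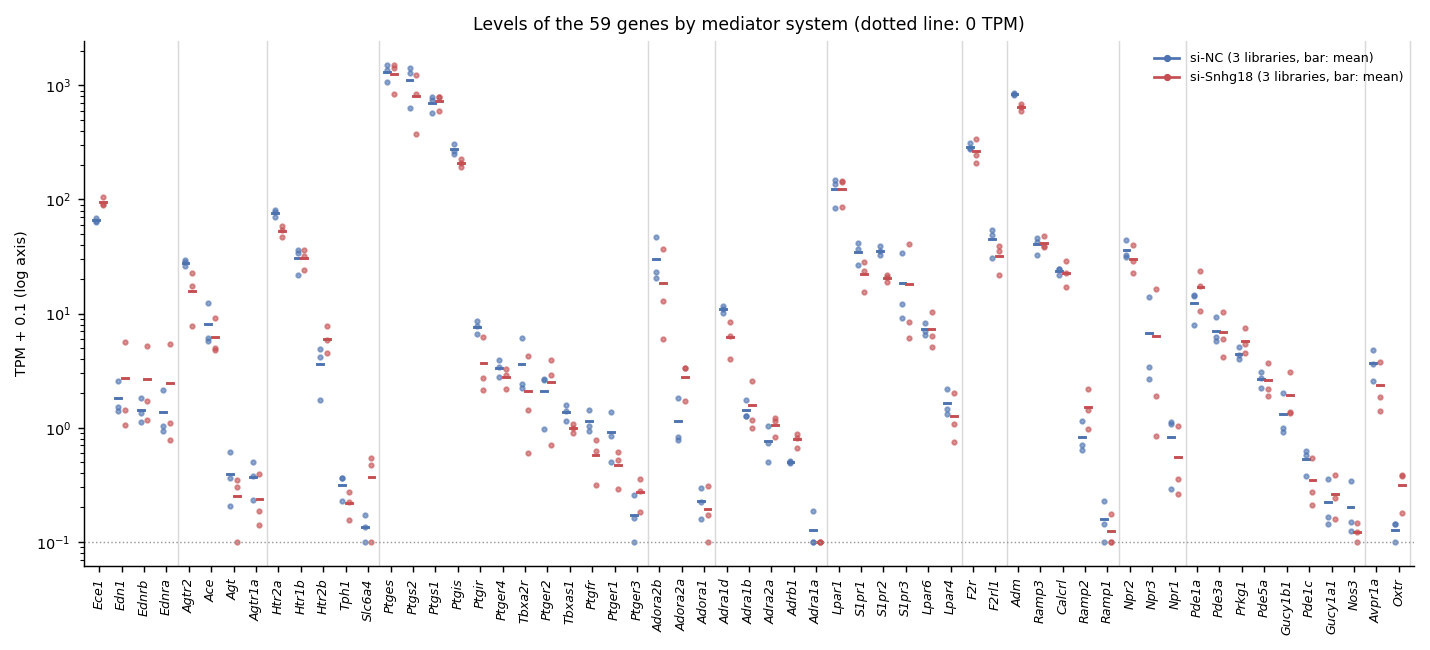
Level of each of the 59 genes in TPM plus 0.1 on a log axis, grouped by mediator system and ordered by mean level within a system, with 3 points per group (blue, si-NC; red, si-*Snhg18*) and a bar at the mean. The prostanoid enzymes *Ptges*, *Ptgs2*, *Ptgs1* and *Ptgis* lie at means of 242 to 1289 TPM, and 17 genes lie under a mean of 1 TPM.

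Of the 59 genes, 47 passed the filter on low counts and were tested. The other 12 never exceeded 15 reads in any library, and they were *Agt*, *Agtr1a*, *Tph1*, *Slc6a4*, *Ptger3*, *Adora1*, *Adra1a*, *Adrb1*, *Ramp1*, *Nos3*, *Gucy1a1* and *Oxtr*. The untested genes thus included the precursor of angiotensin (*Agt*), the receptor through which angiotensin II contracts vessels in rodents (*Agtr1a*), the enzyme that starts serotonin synthesis outside the brain (*Tph1*), the serotonin transporter (*Slc6a4*), the nitric oxide synthase of endothelium (*Nos3*) and a subunit of soluble guanylyl cyclase (*Gucy1a1*). With no filter on low counts all 59 genes were tested, and none of these 12 was called. The groups did not overlap in *Oxtr*, with 2, 0 and 2 reads in si-NC and 15, 4 and 10 reads in si-*Snhg18*, and in *Adrb1*, with 2 reads in every si-NC library and 4, 3 and 3 reads in si-*Snhg18*, counts at or near the floor of 3 reads in one group or both.

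With an adjusted p under 0.05 as the call, 4 of the 47 tested genes changed, a share of 8.51% against 7.36% of all 14531 tested genes. *Ece1* rose, 1 gene against 3.65% of all genes called higher, and *Ptgis*, *S1pr2* and *Adm* fell, 3 genes against 3.71% called lower. Before adjustment 10 of the 47 genes (21.3%) had a p under 0.05, against 24.9% of all genes. The 2 groups did not overlap in 10 of the 47 genes (21.3%), 1 higher and 9 lower in si-*Snhg18*, against 30.9% of all genes. These shares were near or under the background, so the count of calls is no result particular to vasoactive genes. The estimates were positive for 18 genes and negative for 29, and their median was -0.085 on the log2 scale against 0.0072 over all tested genes.

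When the replicate number of the labels entered the fit as a block, which compares each si-*Snhg18* library with the si-NC library of the same number, 19 of the 47 genes passed (40.4%), against 27.2% of all genes. Of these, 5 were higher and 14 were lower, against 13.6% of all genes called higher and 13.6% called lower. The 19 included the 4 genes called without the block. The number of genes that passed with the block was 22 without both libraries numbered 1, 17 without those numbered 2 and 2 without those numbered 3, against 31%, 24% and 4.44% of all genes. Without the block, leaving out si-NC 1, si-NC 3 or si-*Snhg18* 3 left 0 calls among the 51, 50 and 48 genes then tested, by edgeR's quasi-likelihood test, with 7, 10 and 8 genes at an unadjusted p under 0.05. In these 3 fits the share of all genes called was 0%. Leaving out si-NC 2 left 1 call, leaving out si-*Snhg18* 1 left 2, and leaving out si-*Snhg18* 2 raised the count to 14, against 1.06%, 2.16% and 22.1% of all genes. Of the genes called only with the block, 6 passed without it when si-*Snhg18* 2 was left out, and their values are given with each gene. Among the others that passed without si-*Snhg18* 2 were *F2r* and *Avpr1a*, called in neither fit of all libraries. Their adjusted p-values there were 0.0404 and 0.0458 in edgeR's quasi-likelihood test.

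**Figure D2:**
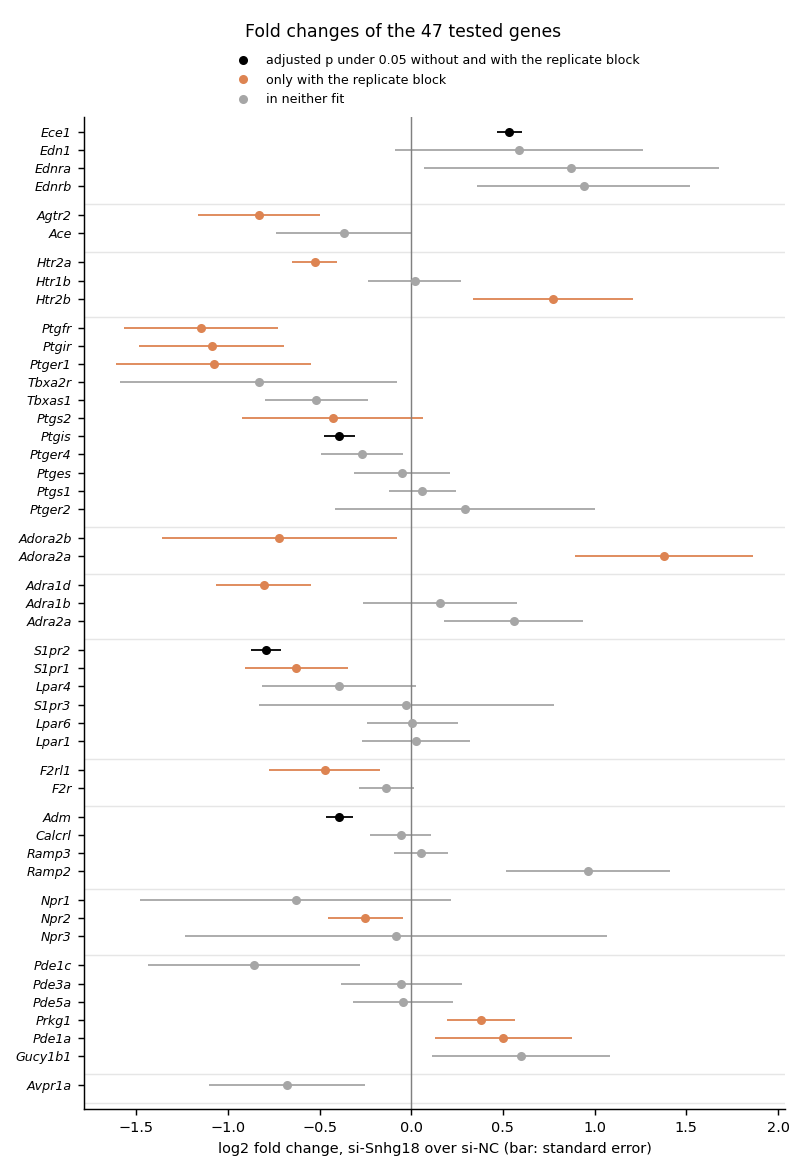
Log2 fold change of si-*Snhg18* over si-NC for each of the 47 tested genes in the fit without the block, grouped by mediator system, with bars of 1 standard error. Black points are the 4 genes called in both fits, orange points the 15 genes called only with the block and grey points the other 28, and the 14 genes lower with the block lie left of 0.

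For the genes called without the block, the RefSeq table of GRCm38.p6 gave promoters for *Ece1*, *S1pr2* and *Adm* and had no entry for *Ptgis*. The 250 bases before each start are printed 5′ to 3′ on the strand of the gene, to show the sequence in front of the genes that changed. Their positions are chr4:137861987-137862236 on the plus strand for *Ece1*, shown at the first of its 4 starts in the table, chr9:20976794-20977043 on the minus strand for *S1pr2* and chr7:110627407-110627656 on the plus strand for *Adm*. Capitals mark matches to any motif searched.
*Ece1*: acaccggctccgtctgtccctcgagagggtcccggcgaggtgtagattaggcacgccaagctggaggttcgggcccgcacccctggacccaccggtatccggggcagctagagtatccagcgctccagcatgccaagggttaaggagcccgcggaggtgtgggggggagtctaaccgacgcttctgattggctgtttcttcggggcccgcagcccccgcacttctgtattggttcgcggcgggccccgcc
*S1pr2*: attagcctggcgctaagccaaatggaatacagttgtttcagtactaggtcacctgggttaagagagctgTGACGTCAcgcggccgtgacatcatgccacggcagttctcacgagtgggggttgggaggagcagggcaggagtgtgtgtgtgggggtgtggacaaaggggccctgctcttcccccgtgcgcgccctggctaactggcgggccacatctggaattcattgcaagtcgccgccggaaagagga
*Adm*: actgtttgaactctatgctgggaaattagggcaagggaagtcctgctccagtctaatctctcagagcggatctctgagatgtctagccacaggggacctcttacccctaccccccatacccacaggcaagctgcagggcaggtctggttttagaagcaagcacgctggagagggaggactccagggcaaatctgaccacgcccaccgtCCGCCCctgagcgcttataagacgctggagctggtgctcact
The motifs searched on both strands were the core of the hypoxia response element (ACGTG), the GC box bound by Sp1 (GGGCGG), and the cAMP response element as its 5-letter beginning (TGACG) and in full (TGACGTCA), which contains the former on both strands. Among 32851 promoters of the same length, 16.6% held ACGTG, 32.7% GGGCGG, 17.8% TGACG and 1.55% the full TGACGTCA. The *S1pr2* promoter held TGACGTCA, the *Adm* promoter held the GC box on its reverse strand, and the *Ece1* promoter held none of these motifs. These matches describe the sequence and show no binding.

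The endothelin system gave the 1 gene called higher. *Ece1* (chr4:137862237-137965229, plus strand) encodes endothelin-converting enzyme, which cuts the inactive precursor into the active peptide. It stood at 131, 139 and 135 CPM in si-NC and at 191, 208 and 187 CPM in si-*Snhg18*, so that every si-*Snhg18* library lay above every si-NC library. The log2 fold change was 0.53 ± 0.069 (SE, n = 3 and 3), a 1.45-fold level, with an adjusted p of 0.0125 in edgeR's quasi-likelihood test. Leaving out si-NC 1, si-NC 2, si-NC 3 or si-*Snhg18* 3 moved this adjusted p to 0.099, 0.0527, 0.0875 and 0.0803, respectively. The peptide gene *Edn1* and the receptor genes *Ednra* and *Ednrb* were scarce, with mean levels of 2.16, 1.8 and 1.96 TPM. All of them were highest in the library numbered 2 of both groups. *Edn1* gave 1.29, 2.2 and 1.19 CPM in si-NC and 0.909, 4.88 and 1.2 CPM in si-*Snhg18*, and *Ednrb* gave 1.81, 2.98 and 2.2 CPM against 1.94, 8.64 and 2.79 CPM, so that in both genes the groups overlapped. Neither passed the test, with adjusted p-values of 0.636 and 0.363, nor did *Ednra* at 0.543. The receptor of *Ednra* contracts vessels and that of *Ednrb* relaxes them when on endothelium. Of the summed TPM of both genes, *Ednrb* made 52.9% ± 6.15 (SD) in si-NC and 57.1% ± 7.14 in si-*Snhg18*. These shares depend on the deposited exon lengths. With merged exons the means over the 6 libraries were 1.9 TPM for *Ednra* and 3.01 TPM for *Ednrb*.

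In the angiotensin system almost all receptor transcripts were of the type 2 kind. *Agtr2*, whose receptor is known to oppose the type 1 receptor, made 99% ± 0.441 of the summed TPM of the listed angiotensin receptors in si-NC and 99.1% ± 0.715 in si-*Snhg18*. Its level was 36.7, 40.3 and 39.8 CPM in si-NC and 11.2, 30.5 and 23.9 CPM in si-*Snhg18*. The groups did not overlap, but the si-*Snhg18* libraries were spread over a wide range while the si-NC libraries lay close together. The log2 fold change was -0.83 ± 0.33 with an adjusted p of 0.186 without the block and -0.92 ± 0.22 with an adjusted p of 0.021 with it. Without the block it was -1.16 on leaving out si-*Snhg18* 2 (adjusted p = 0.0373) and -0.51 on leaving out si-*Snhg18* 1 (adjusted p = 0.11). *Ace*, which encodes the enzyme that makes angiotensin II, gave 12, 25.3 and 12.7 CPM in si-NC and 10.2, 18.2 and 10.2 CPM in si-*Snhg18*. Each si-*Snhg18* library lay under the si-NC library of its number, the groups overlapped, and the adjusted p was 0.578 without the block and 0.0526 with it.

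*Htr2a*, the Gq-coupled receptor through which serotonin contracts and stimulates smooth muscle, was the most abundant at 64.7 TPM, followed by the Gi-coupled *Htr1b* at 30.7 TPM and by *Htr2b* at 4.73 TPM. *Htr2a* gave 188, 165 and 195 CPM in si-NC and 145, 109 and 127 CPM in si-*Snhg18*, and the groups did not overlap. Its log2 fold change of -0.53 ± 0.12 had an adjusted p of 0.054, just over the threshold, and the value with the block was -0.53 ± 0.067 with an adjusted p of 0.00215. On leaving out si-*Snhg18* 2 the adjusted p without the block was 0.0312. *Htr2b* had an estimate of the opposite sign, with 3.62, 1.43 and 4.32 CPM in si-NC and 7.08, 3.8 and 5.09 CPM in si-*Snhg18*. Each si-*Snhg18* library was above its same-numbered partner although the groups overlapped, and *Htr2b* passed only with the block (log2 fold change 0.84 ± 0.25, adjusted p = 0.0447, against 0.328 without it). *Htr1b* gave 68.7, 42.6 and 73.3 CPM in si-NC against 76, 46.6 and 64.4 CPM in si-*Snhg18*, with number 2 the lowest library of both groups and an adjusted p of 0.972. As shares of the summed TPM of the 3 receptors, *Htr2a* made 69.6% ± 4.8 in si-NC and 59.3% ± 2.79 in si-*Snhg18*, *Htr1b* 27.3% ± 3.65 and 34.1% ± 2.1, and *Htr2b* 3.07% ± 1.16 and 6.56% ± 0.841.

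**Figure D3:**
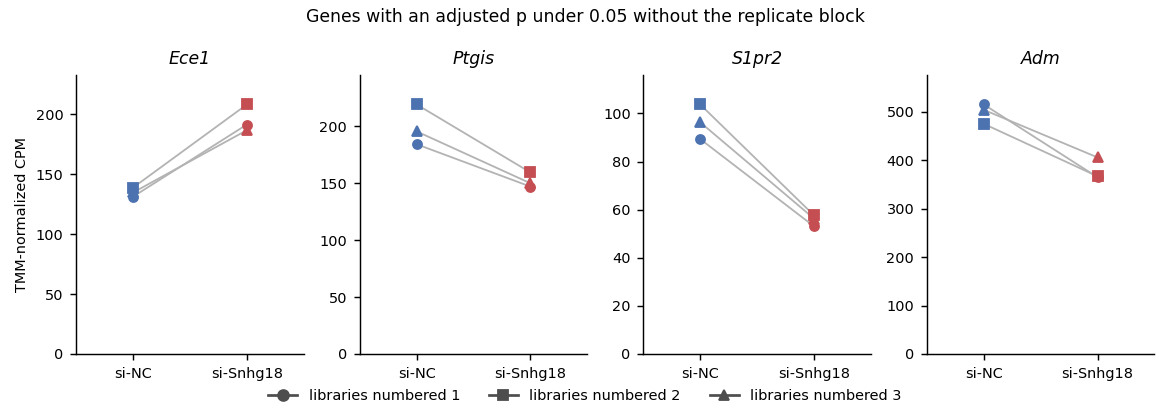
TMM-normalized CPM of *Ece1*, *Ptgis*, *S1pr2* and *Adm*, the 4 genes called without the block, in each library, with lines joining libraries of the same number (circle, 1; square, 2; triangle, 3). In all 4 panels the groups are apart, with *Ece1* at 131 to 139 CPM in si-NC and 187 to 208 CPM in si-*Snhg18*, and *S1pr2* at 89.3 to 104 and 53.1 to 57.6 CPM.

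Among the prostanoid genes, the synthase of the vasodilator prostacyclin fell, while *Ptges* and *Ptgs1* gave estimates near 0. With the block 3 receptors were lower, where 13.6% of all genes were called lower. *Ptgis* (chr2:167191805-167240604, minus strand), which turns the product of cyclooxygenase into prostacyclin, stood at 184, 219 and 196 CPM in si-NC and 147, 159 and 150.0 CPM in si-*Snhg18*, without overlap. Its log2 fold change was -0.39 ± 0.084 with an adjusted p of 0.0437, near the threshold. That p was 0.0611 with library totals in place of TMM factors. It was 0.122, 0.118 and 0.154 on leaving out si-NC 1, 2 or 3, and 0.117 and 0.187 on leaving out si-*Snhg18* 1 or 3. *Ptgs2*, the inducible cyclooxygenase, gave 2434, 1183 and 2721 CPM in si-NC and 2432, 685 and 1589.6 CPM in si-*Snhg18*. The pair numbered 1 was level, the other pairs were lower in si-*Snhg18*, and the groups overlapped. *Ptgs2* passed with the block (log2 fold change -0.52 ± 0.15, adjusted p = 0.0366) and not without it (adjusted p = 0.635). The constitutive *Ptgs1* gave 917, 683 and 967 CPM in si-NC against 1009.6, 700.1 and 967 CPM in si-*Snhg18*, and *Ptges* gave 318, 242 and 354 CPM in si-NC against 365, 189 and 328 CPM in si-*Snhg18*. In both genes the groups overlapped, with log2 fold changes of 0.06 ± 0.18 and -0.05 ± 0.26 and adjusted p-values of 0.87 and 0.928. *Tbxas1*, the synthase of thromboxane, was at 1.08 TPM, its groups did not overlap, and its adjusted p was 0.307.

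The prostanoid receptors were scarcer than the enzymes other than *Tbxas1*, and the highest, the prostacyclin receptor gene *Ptgir*, averaged 5.59 TPM. It gave 8.97, 9.79 and 7.62 CPM in si-NC and 2.45, 6.88 and 3.01 CPM in si-*Snhg18*, and every si-*Snhg18* library lay under every si-NC library. With the block the log2 fold change of *Ptgir* was -1.19 ± 0.26 with an adjusted p of 0.0149, against -1.09 ± 0.39 and 0.153 without it. The latter estimate became -1.70 without si-*Snhg18* 2 (adjusted p = 0.00631) and -0.82 without si-*Snhg18* 1 (adjusted p = 0.286). *Ptgfr*, the receptor of the constrictor prostaglandin F2 alpha, gave 2.67, 3.71 and 2.37 CPM in si-NC against 0.633, 1.84 and 1.48 CPM in si-*Snhg18*, again without overlap, and passed with the block (log2 fold change -1.21 ± 0.32, adjusted p = 0.0304, against 0.157 without it). *Ptger1*, a prostaglandin E2 receptor coupled to calcium, gave 1.51, 2.53 and 0.804 CPM in si-NC against 0.87, 0.999 and 0.383 CPM in si-*Snhg18*. Its groups overlapped, and it passed with the block (log2 fold change -1.07 ± 0.32, adjusted p = 0.0465, against 0.269). The cAMP-raising receptor genes *Ptger2* and *Ptger4* and the thromboxane receptor gene *Tbxa2r* passed in neither fit, with adjusted p-values of 0.831, 0.495 and 0.538 without the block. *Tbxa2r* followed the libraries numbered 2, with 1.77, 4.49 and 1.61 CPM in si-NC and 0.395, 3 and 0.985 CPM in si-*Snhg18*. Of the summed TPM of the 7 prostanoid receptors, *Ptgir* made 41.8% ± 2.51 in si-NC and 29% ± 9.88 in si-*Snhg18*. In all, 11 of the 12 prostanoid genes were tested, and none was higher in either fit. Without the block 1 fell (9.09%), against 3.71% of all genes called lower. With the block 5 were lower (45.5%), against 13.6% of all genes.

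Both tested adenosine receptors raise cAMP, and their estimates had opposite signs. *Adora2b*, the low-affinity receptor and the more abundant at 24.2 TPM, gave 16.1, 36 and 18.3 CPM in si-NC and 4.82, 28 and 9.91 CPM in si-*Snhg18*. *Adora2a*, at 1.87 TPM, gave 0.82, 0.734 and 1.91 CPM in si-NC against 3.76, 1.73 and 3.56 CPM in si-*Snhg18*. In both genes all 3 pairs went one way and the groups overlapped. With the block the log2 fold change was -0.94 ± 0.23 for *Adora2b* (adjusted p = 0.0231, against 0.531 without it). For *Adora2a* it was 1.42 ± 0.32 (adjusted p = 0.0178, against 0.144). When si-*Snhg18* 2 was left out, *Adora2b* and *Adora2a* passed without the block, with log2 fold changes of -1.69 and 1.66 and adjusted p-values of 0.0442 and 0.0394. Over the libraries left out, the estimate ranged from -1.69 to -0.28 for *Adora2b*, nearest 0 without si-NC 2, and from 1.13 to 1.95 for *Adora2a*, highest without si-NC 3. *Adora2a* made 3.9% ± 2.73 of the summed TPM of the adenosine receptors in si-NC and 19.9% ± 15.6 in si-*Snhg18*, where the share ranged from 4.21% in number 2 to 35.3% in number 1.

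Among the adrenergic receptors, which answer noradrenaline and adrenaline, *Adra1d* was the main one at 8.48 TPM, a Gq-coupled subtype that contracts large arteries. It gave 8.8, 7.96 and 9.36 CPM in si-NC and 3.32, 6.57 and 5.04 CPM in si-*Snhg18*, without overlap. Its log2 fold change was -0.81 ± 0.26 with an adjusted p of 0.117 without the block and -0.84 ± 0.22 with an adjusted p of 0.0303 with it. Leaving out si-*Snhg18* 2 gave -1.07 without the block (adjusted p = 0.0215). *Adra1b* and *Adra2a* were at 1.41 and 0.81 TPM and passed in neither fit, with adjusted p-values of 0.851 and 0.411 without the block. The beta-adrenergic *Adrb1* had at most 4 reads in a library.

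**Figure D4:**
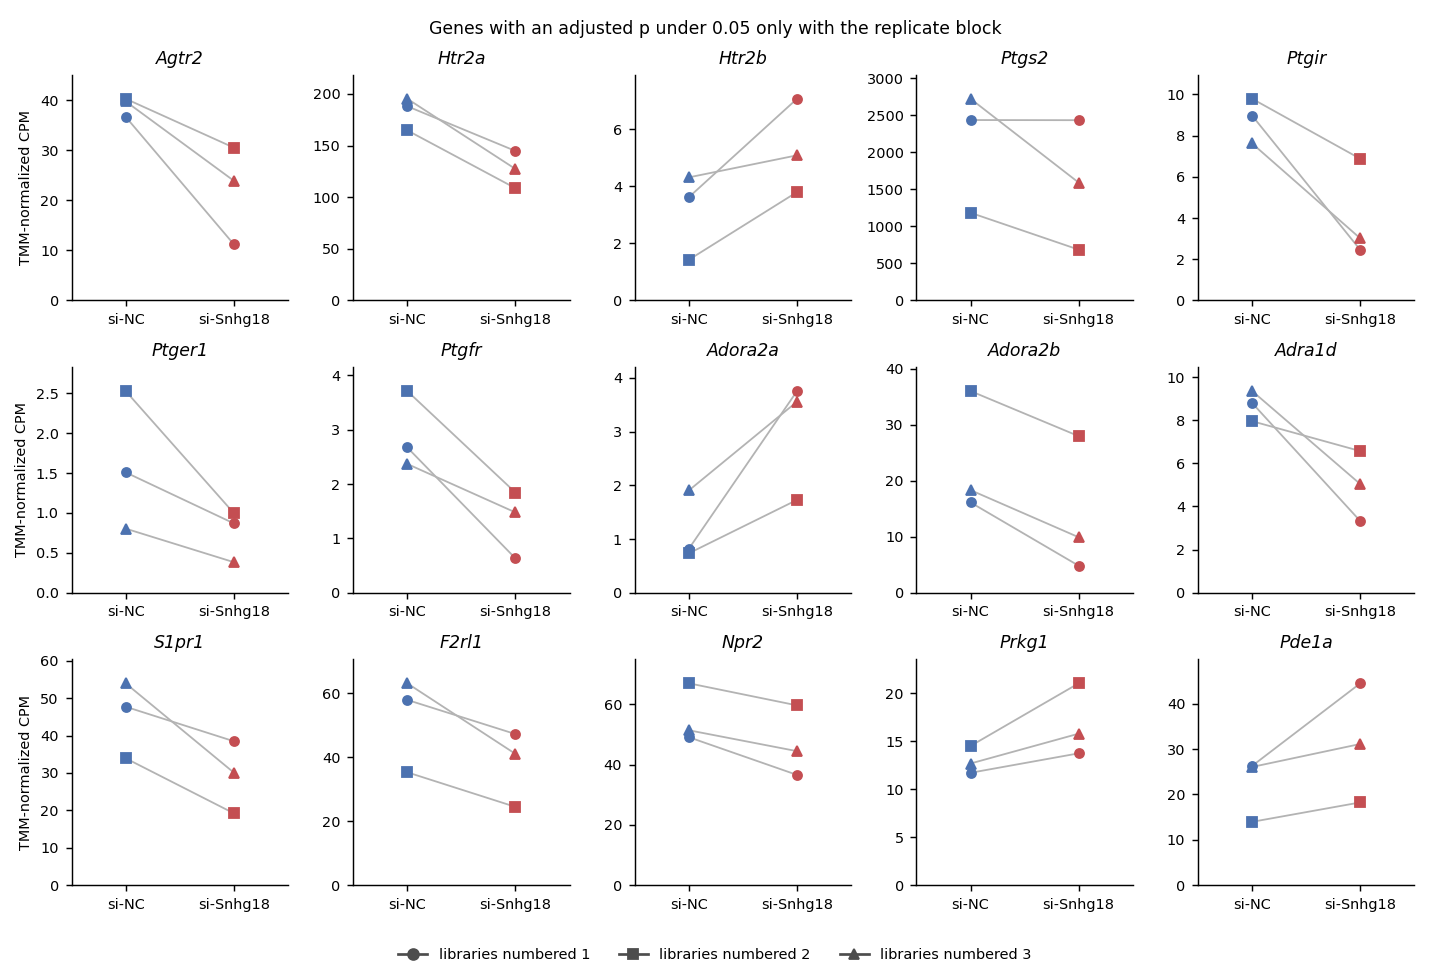
TMM-normalized CPM of the 15 genes that passed only with the replicate number as a block, with lines joining libraries of the same number (circle, 1; square, 2; triangle, 3). The 11 lower genes have falling lines, though the line of *Ptgs2* numbered 1 is level, and *Htr2b*, *Adora2a*, *Prkg1* and *Pde1a* have rising lines.

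The lysophospholipid receptors gave the gene with the smallest p of the 47. *S1pr2* (chr9:20962361-20976781, minus strand) encodes a receptor of the lipid mediator sphingosine 1-phosphate. It stood at 89.3, 104 and 96.3 CPM in si-NC and 53.1, 57.6 and 56.3 CPM in si-*Snhg18*, and the gap between the groups was wider than the spread within either. The log2 fold change was -0.79 ± 0.08, a 0.577-fold level, with an adjusted p of 0.00768 in edgeR's quasi-likelihood test, and *S1pr2* was the 1 gene of the 4 with at least a 1.5-fold change. Its adjusted p was 0.0659 or 0.07 on leaving out si-NC 1 or 3, and 0.0783 on leaving out si-*Snhg18* 3. *S1pr1*, the Gi-coupled receptor of the same lipid, gave 47.8, 33.9 and 54 CPM in si-NC and 38.5, 19.2 and 30.1 CPM in si-*Snhg18*. Its groups overlapped, each pair was lower in si-*Snhg18*, and it passed with the block (log2 fold change -0.65 ± 0.12, adjusted p = 0.00756, against 0.23 without it). *S1pr3* gave 23.1, 63.9 and 17.3 CPM in si-NC against 12, 74.1 and 15.9 CPM in si-*Snhg18*, with the library numbered 2 far above the others in both groups and an adjusted p of 0.987. As a share of the summed TPM of the 3 receptors, *S1pr2* made 40.0% ± 1.08 in si-NC and 34.3% ± 5.72 in si-*Snhg18*, *S1pr1* 40.0% ± 11.6 and 39.2% ± 17.5, and *S1pr3* 19.9% ± 12.7 and 26.5% ± 22.3. The lysophosphatidic acid receptors were led by *Lpar1*, at 92.8% ± 3.25 of their summed TPM in si-NC and 93% ± 4.71 in si-*Snhg18*. *Lpar1* gave 199.9, 120.4 and 219 CPM in si-NC against 221, 122 and 206 CPM in si-*Snhg18*, a log2 fold change of 0.027 ± 0.29 with an adjusted p of 0.967. *Lpar6* and *Lpar4* passed in neither fit, with adjusted p-values of 0.992 and 0.608 without the block.

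Of the protease-activated receptors, *F2r*, the receptor of thrombin, gave 405, 434 and 394 CPM in si-NC and 310.2, 462 and 349.6 CPM in si-*Snhg18*, with overlapping groups and an adjusted p of 0.615. *F2rl1*, the receptor opened by trypsin-like proteases, gave 57.9, 35.3 and 63.1 CPM in si-NC against 47.2, 24.4 and 41 CPM in si-*Snhg18*. Its groups overlapped and its pairs were all lower in si-*Snhg18*, with a log2 fold change of -0.48 ± 0.086 and an adjusted p of 0.00719 with the block against 0.381 without it. The genes lie 76575 bases apart on the minus strand of chromosome 13.

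Adrenomedullin relaxes vessels through a receptor made of the protein of *Calcrl* and a partner from the *Ramp* family. *Adm* (chr7:110627661-110629820, plus strand) gave 515, 475 and 504 CPM in si-NC and 365, 367 and 406 CPM in si-*Snhg18*, and all si-*Snhg18* libraries were lower than all si-NC libraries. The log2 fold change was -0.39 ± 0.073, a 0.761-fold level, with an adjusted p of 0.031 in edgeR's quasi-likelihood test. The adjusted p of *Adm* was 0.163, 0.0799 and 0.145 when si-NC 1, 2 or 3 was left out, and 0.0862 and 0.0989 when si-*Snhg18* 1 or 3 was. The receptor genes gave estimates near 0, with *Calcrl* at 51.4, 50.3 and 45.4 CPM in si-NC and 36.8, 57.8 and 46.7 CPM in si-*Snhg18* and *Ramp3* at 22.4, 23.5 and 17.4 CPM against 21.3, 24.3 and 20.0 CPM. Their groups overlapped, their log2 fold changes were -0.057 ± 0.17 and 0.053 ± 0.15, and their adjusted p-values were 0.862 and 0.854. *Ramp3* made 98.1% ± 0.404 of the summed TPM of the 3 *Ramp* genes in si-NC and 96.7% ± 0.986 in si-*Snhg18*. *Ramp2* averaged 1.08 TPM with an adjusted p of 0.243.

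The natriuretic peptide receptors were led by *Npr2*, the guanylyl cyclase that binds C-type natriuretic peptide, at 33.1 TPM. It gave 49.1, 67 and 51.4 CPM in si-NC and 36.6, 59.7 and 44.5 CPM in si-*Snhg18*. The groups overlapped, all 3 pairs were lower in si-*Snhg18*, and *Npr2* passed with the block (log2 fold change -0.27 ± 0.077, adjusted p = 0.0406, against 0.493 without it). *Npr3*, the clearance receptor, gave 9.84, 40.4 and 7.58 CPM in si-NC against 2.29, 46.7 and 5.26 CPM in si-*Snhg18*, with number 2 far above the other libraries of each group, a log2 fold change of -0.085 ± 1.15 and an adjusted p of 0.972. *Npr1*, the receptor of atrial natriuretic peptide, averaged 0.589 TPM and had an adjusted p of 0.69.

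In the nitric oxide and cyclic nucleotide arm no gene passed without the block, against 7.36% of all genes. With the block 2 of the 6 tested genes passed (33.3%), both higher. Of all genes 27.2% passed with the block, 13.6% as higher. *Prkg1*, the kinase that cGMP activates to relax smooth muscle, gave 11.7, 14.5 and 12.7 CPM in si-NC and 13.7, 21 and 15.8 CPM in si-*Snhg18*, a log2 fold change of 0.37 ± 0.11 with the block (adjusted p = 0.0476, against 0.264 without it). *Pde1a*, a calcium-activated phosphodiesterase and the most abundant gene of this arm at 14.6 TPM, gave 26.3, 14 and 26.1 CPM in si-NC against 44.6, 18.2 and 31.2 CPM in si-*Snhg18*. Its log2 fold change with the block was 0.47 ± 0.12 (adjusted p = 0.0223, against 0.451), and in both genes each pair was higher in si-*Snhg18* while the groups overlapped. *Pde3a*, which breaks down cAMP, *Pde5a*, which breaks down cGMP, *Pde1c* and *Gucy1b1* passed in neither fit, with adjusted p-values of 0.94, 0.942, 0.407 and 0.489 without the block. *Gucy1b1* averaged 1.52 TPM and its partner subunit gene *Gucy1a1*, 17737 bases away on the same strand of chromosome 3, 0.142 TPM. The vasopressin receptor gene *Avpr1a* gave 4.05, 5.3 and 2.84 CPM in si-NC against 1.54, 4.07 and 1.97 CPM in si-*Snhg18*, with an adjusted p of 0.37 without the block and 0.0709 with it.

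In 28 of the 47 genes (59.6%) number 2 was the highest library of both groups, against 32.2% of all tested genes, and in 13 (27.7%) it was the lowest of both, against 29.8%. The deviations from the group means, taken over the 47 genes, correlated between libraries of the same number with r = 0.791, 0.905 and 0.662 (numbers 1, 2 and 3 in turn). Libraries of different numbers gave 0.725 for si-NC 3 with si-*Snhg18* 1 and 0.379 for si-NC 1 with si-*Snhg18* 3, and negative values from -0.845 to -0.599 where only one library was a number 2, a description over genes that are not independent. All 4 endothelin genes, *S1pr3*, *Npr3*, *Adora2b* and *Tbxa2r* were highest in number 2, and *Npr3* exceeded the mean of numbers 1 and 3 by 4.64-fold in si-NC and 12.4-fold in si-*Snhg18*. *Ptgs2*, *Ptges*, *Lpar1*, *Htr1b*, *F2rl1* and *S1pr1* were lowest in number 2, with *Ptgs2* at 0.459 and 0.341 of the mean of the other libraries in the groups. What the number stands for was not given in the sources used here.

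**Figure D5:**
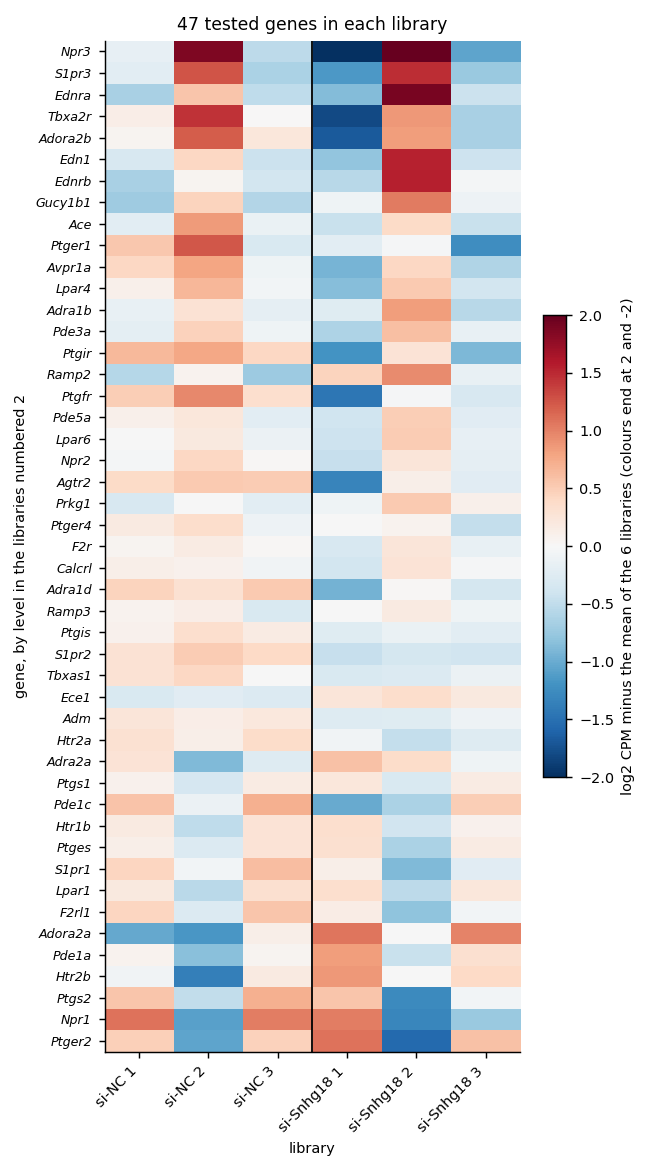
Deviation of each of the 47 tested genes from its mean over the 6 libraries in log2 CPM (prior count 2), one column per library and one row per gene, ordered by the sum over the libraries numbered 2, with colours limited at 2 and -2. The columns of number 2 are red for the upper rows, from *Npr3* and *S1pr3* downward, and blue for the lowest rows, such as *Ptger2* and *Ptgs2*, in both groups.

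Of 76 other genes of the same systems, 37 were tested and 3 changed without the block. *Bdkrb1*, the inducible bradykinin receptor gene, gave 12.5, 14.3 and 16.1 CPM in si-NC and 5.34, 6.99 and 6.13 CPM in si-*Snhg18*, a log2 fold change of -1.21 ± 0.16 with an adjusted p of 0.0137. *Plpp3*, which encodes an ectoenzyme that degrades lysophosphatidic acid, gave 264, 274 and 269 CPM in si-NC against 225, 216 and 217 CPM in si-*Snhg18*, a log2 fold change of -0.30 ± 0.059 with an adjusted p of 0.0365. *Pde4a*, a phosphodiesterase specific for cAMP, gave 30.6, 33.9 and 28.9 CPM in si-NC against 41.6, 46.1 and 47.6 CPM in si-*Snhg18*, a log2 fold change of 0.54 ± 0.097 with an adjusted p of 0.0289. The groups did not overlap in any of the 3 genes, and in 11 of the 37 (29.7%), against 30.9% of all genes. The share called was 8.11%, against 7.36% of all genes. With the block 7 genes were higher and 8 lower (40.5%), against 27.2% of all genes. The median log2 fold change of the 37 genes was 0.019.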

How the data were processed

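Libraries were made by the authors with a stranded TruSeq mRNA kit. The deposited values are raw counts, 1 whole number per gene and library, and beside them stand an exon length and a GRCm38 position. The submitters' processing notes name HISAT2 and mm10. The counting program, its strand setting and filters were not given in the sources used here, so that reads of related or overlapping genes may be divided in ways the counts do not show. Groups and replicate numbers came from the sample labels, and all 6 columns of counts were used.

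The counts were tested with edgeR 4.0.16 and limma 3.58.1 (R 4.3.3). Genes were filtered by filterByExpr with a minimum count of 10, normalized by TMM and compared by glmQLFit and glmQLFTest, and p-values were adjusted by the Benjamini-Hochberg method over 14531 genes. A call is an adjusted p under 0.05. The standard error of a log2 fold change was taken as its absolute value divided by the square root of the F statistic of glmQLFTest. CPM values were scaled by TMM factors. TPM values used the deposited exon length, which is that of 1 transcript in part of the genes. Shares of summed TPM rest on the same lengths. The scripts were tested on simulated data.

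The study does not say that libraries of the same number share a culture. Deviations from the group means over all tested genes correlated between libraries of the same number with r = 0.410, 0.742 and 0.359 (numbers 1, 2 and 3 of the labels). Of different numbers, si-NC 3 with si-*Snhg18* 1 gave 0.497, si-NC 1 with si-*Snhg18* 3 gave 0.186 and combinations with 1 library numbered 2 gave -0.661 to -0.403, so that number 2 differed from numbers 1 and 3 more than these differed from each other. The numbers were taken as pairs because every same-number value was over 0.1. The values 0.497 and 0.186 of different numbers were over 0.1 too, so that this rule cannot tell numbers 1 and 3 apart. Values of a second fit, in which the number is a block, are given where the call changed.

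The genes, systems and lists were chosen with earlier results of these data known. Values in every library are given for *Snhg18*, for genes called in either fit and for the most abundant gene of each system; other genes served as examples. The further lists were other genes of the same systems, genes of G proteins and second messengers, and markers of 6 cell types. One listed gene was matched through a synonym. Alternatives were DESeq2 1.42.0, RLE factors, library totals, other filters, limma-voom, other thresholds, thinning to the smallest total, the block and leaving out each library. DESeq2 with the block, the block without both libraries of a number and TPM from merged exon lengths were added after seeing the data.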

Additional observations from a re-analysis of the deposited data

How the results depend on the processing

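Of the 59 genes, 4 were called, and 4 to 6 were called with DESeq2, RLE factors, library totals, other filters, limma-voom, thinning or an adjusted p under 0.1. A change of at least 1.5-fold left 1. The replicate block gave 19, DESeq2 with the replicate block 15, and the block without both libraries numbered 1, 2 and 3 gave 22, 17 and 2. Leaving out each library gave 0 to 14. Of all tested genes, 7.36% were called in the main fit, 14.2% with DESeq2, 27.2% with the replicate block and 21.3% with DESeq2 and the block. The share was 13.5% at an adjusted p under 0.1, 3.67% at 1.5-fold and 0% to 22.1% on leaving out each library. For the other genes of the same systems, 3 were called, against 6 with DESeq2, 15 with the replicate block, 14 with DESeq2 and the block, 5 at an adjusted p under 0.1, 1 at 1.5-fold and 0 to 10 on leaving out each library. For the G protein and second messenger genes, 3 were called, against 9 with DESeq2, 25 with the replicate block, 18 with DESeq2 and the block, 9 at an adjusted p under 0.1 and 0 at 1.5-fold, where 17 had an unadjusted p under 0.05. Leaving out each library gave 0 to 18. The 0 counts came from edgeR's quasi-likelihood test without si-NC 1, si-NC 3 or si-*Snhg18* 3, where the whole table had no call, and in these lists also without si-NC 2, with at least 6 genes of each list at an unadjusted p under 0.05. Over these fits the log2 fold change of *Snhg18* lay between -1.14 and -1.06. The cause was not tested. For the 19 genes called in either fit, 14 alternatives gave 266 values in all. Of these values, 223 kept their direction and side of the threshold, 18 lost the call, 25 gained it and none turned its sign. The replicate block was 1 of the 14 alternatives and had also chosen 15 of the 19 genes. Thus 15 of the 25 gains were fixed by that choice, and the steady signs of genes so chosen are no test of stability. Of the 28 tested genes called in neither fit, 16 turned their sign on leaving out a library, such as *Edn1*, *S1pr3* and *Npr3*. The smallest total, in si-*Snhg18* 3, limits genes near 0.164 CPM. Scarce receptors such as *Ptger1* and *Adra2a* rest on few reads.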

Other observations

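Downstream of the receptors, 53 of 56 genes of G proteins and second messengers were tested, with a median log2 fold change of 0.11. Without the block 3 changed, a share of 5.66% against 7.36% of all genes. *Adcy3*, an adenylyl cyclase, gave 88.9, 89.1 and 87.3 CPM in si-NC and 53.5, 63.7 and 63.5 CPM in si-*Snhg18* (log2 fold change -0.55 ± 0.086, adjusted p = 0.0198), and *Adcy7*, a further adenylyl cyclase, gave 131, 132 and 130.1 CPM in si-NC against 96.1, 107 and 104 CPM in si-*Snhg18* (-0.35 ± 0.066, adjusted p = 0.0304). *Grk6*, a kinase that desensitizes receptors, gave 64, 64.3 and 59.9 CPM in si-NC against 76.3, 78.9 and 84.2 CPM in si-*Snhg18* (0.35 ± 0.071, adjusted p = 0.0386). The groups did not overlap in any of these 3 genes, and in 21 of the 53 (39.6%), against 30.9% of all genes. With the block 16 genes of this list were higher and 9 lower (47.2% of the 53), against 13.6% of all genes in each direction, and the smallest adjusted p was that of *Itpr2*, a calcium release channel, named after its values had been seen. It gave 64.8, 40.8 and 61.4 CPM in si-NC and 158, 79.7 and 142 CPM in si-*Snhg18*, a log2 fold change of 1.16 ± 0.076 with an adjusted p of 0.000504 with the block and 0.0617 without it.

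Of the 36 receptors, 25 were grouped by the G protein each is best known for, without 11 others such as *S1pr2*, the 1 receptor called without the block, a grouping made after the values had been seen and given as a description. Of 13 receptors coupled to Gq and G11, 10 were tested, with 4 positive and 6 negative estimates and a median log2 fold change of -0.60. With the block 4 were lower and 1, *Htr2b*, was higher, against 13.6% of all genes called in each direction. Of 7 coupled to Gs, 6 were tested, with a median of -0.16, and with the block *Ptgir* and *Adora2b* were lower and *Adora2a* higher. Of 5 coupled to Gi, 3 were tested, with a median of 0.018, and *S1pr1* alone passed with the block. Thus 50% of the tested Gs receptors and 33.3% of the tested Gi receptors passed with the block, against 27.2% of all genes. Without the block none of these 19 tested receptors passed edgeR's quasi-likelihood test, and 5 had an unadjusted p under 0.05, against 24.9% of all genes.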
